A study of Mus musculus with 2 samples.

Results

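The initiation knot is a small group of cells in the early dental epithelium of the mouse jaw that acts as a signaling center: it secretes SHH, WNT, BMP and FGF ligands, and its cells are known to leave the cell cycle while the tooth bud grows around them. SHH is a secreted protein that binds the receptor PTCH1 and thereby frees SMO to activate the GLI transcription factors, and PTCH1 and GLI1 are themselves transcribed in response. WNT ligands stabilise beta-catenin, which binds LEF and TCF factors on DNA, and several inhibitors of the pathway are induced by the pathway itself.

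Knot cells were chosen by their UMIs (counted RNA molecules) of 3 genes in the E12.0 library, as cells with at least 2 UMIs of Shh and no UMI of Foxa1 or Foxa2, which mark tongue epithelium, where Shh is also expressed. The rule gave 234 of 11355 kept E12.0 cells (2.06%), against 24099 kept cells in the whole series. The library held GFP-positive epithelial cells sorted from the mandibular arches of 6 pooled K14Cre;R26mT/mG embryos at E12.0, in which Cre driven by the keratin 14 promoter switches a reporter from membrane tdTomato to membrane GFP. The sort keeps only cells in which K14Cre had acted, and the embryos cannot be told apart by label. The series also holds 1 library of unsorted cells from the mandibular arches of 8 pooled E9.5 embryos with the same genotype label and no treatment. With 1 library per stage there were no replicates, so no test was made, and every interval given is a 95% interval for counting error only.

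The 234 knot cells held 1860649 UMIs, with a median of 6979.5 UMIs and 2949 genes per cell. They were compared with all 11121 other kept cells (median 6334 UMIs), and with 1453 cells that had a UMI of Irx1, a dental transcription factor, and none of Shh (median 7416 UMIs), called dental Shh-negative cells below. The second group is part of the first, and both comparisons share the same knot cells. As a background for shares of cells, 4802 anterior aboral cells were used, which had at least 3 UMIs of Cxcl14 and none of Irx1 or Shh (median 6402.5 UMIs). Of the 51 barcodes that the 2 libraries had in common, 0 were knot cells. Of the knot cells, 29 (12.4%) were called doublets, against 5.68% of all other cells and 9.08% of the dental Shh-negative cells. Counts of genes without called doublets stand in the closing section.

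Shh (ENSMUSG00000002633; GRCm38 chr5:28456815-28467256, minus strand) chose the cells, so its level is a description only. Knot cells held 2 to 20 Shh UMIs with a median of 4, with 72 cells at 2, 62 cells at 3 or 4 and 100 cells at 5 or more. Just outside the threshold lay 181 cells with 1 Shh UMI and no Foxa UMI, and 24 cells with at least 2 Shh UMIs and a Foxa UMI. The other 5 markers of the knot were Bmp2, a BMP ligand, Wif1 and Dkk4, secreted WNT inhibitors, Sp5, a transcription factor known as a direct WNT target, and Tgfb2, a TGF-beta ligand. Of the knot cells, 29 (12.4%) had a UMI of 0 of these markers, 165 (70.5%) of at least 2 and 21 (8.97%) of all 5. At least 2 were found in 90 of the 100 knot cells with 5 or more Shh UMIs and in 39 of the 72 with 2 (54.2%). The same was true of 29.8% of cells with 1 Shh UMI, 8.67% of dental Shh-negative cells and 0.979% of anterior aboral cells. At least 3 were found in 95 of the 234 knot cells (40.6%). These markers were named for the knot with results of this library known, so the shares describe the cells and are no independent check of the label.

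**Figure D1:**
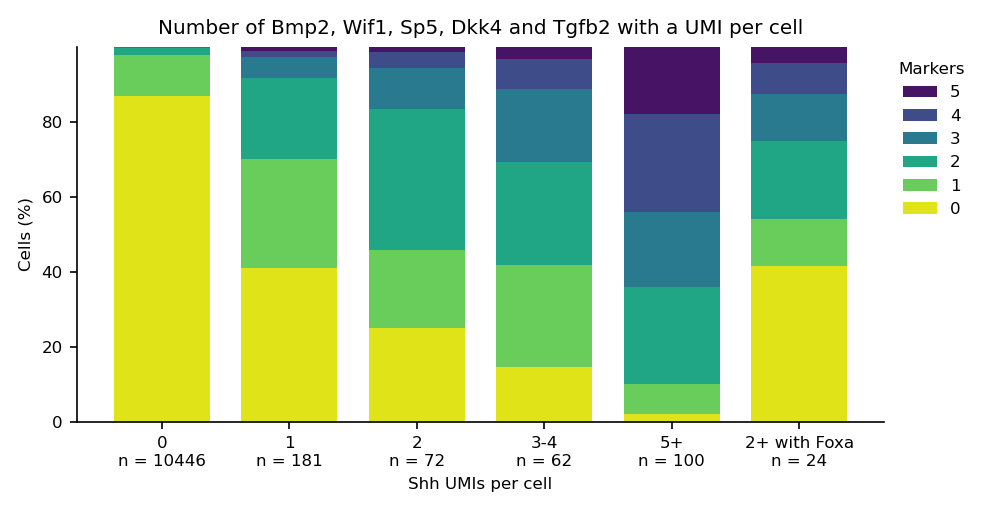
Stacked bars give the percentage of E12.0 cells with a UMI of 0 to 5 of Bmp2, Wif1, Sp5, Dkk4 and Tgfb2, by the Shh UMIs of the cell; the last bar holds cells with at least 2 Shh UMIs and a Foxa UMI. Cells with none of the 5 markers numbered 18 of 72 at 2 Shh UMIs and 2 of 100 at 5 or more.

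Promoter sequence was at hand for 3 of the 6 markers, and these are shown because Wif1, Sp5 and Tgfb2 were among the most raised genes and 2 of them belong to the WNT pathway, whose LEF and TCF factors bind DNA of the kind CTTTGA. The 250 bases before the RefSeq start of each gene (GRCm38.p6) are given 5′ to 3′ on the gene's strand. Each match to CTTTGA or its reverse complement TCAAAG is in capitals. By the GENCODE positions used elsewhere, Wif1 starts at chr10:121033960, so the end of its window lies within the gene.
Sp5, chr2:70474673-70474922, plus strand: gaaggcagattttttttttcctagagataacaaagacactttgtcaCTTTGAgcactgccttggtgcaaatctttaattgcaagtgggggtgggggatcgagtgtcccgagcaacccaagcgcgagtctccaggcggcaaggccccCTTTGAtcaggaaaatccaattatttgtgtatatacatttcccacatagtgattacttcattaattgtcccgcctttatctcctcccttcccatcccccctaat
Wif1, chr10:121033754-121034003, plus strand: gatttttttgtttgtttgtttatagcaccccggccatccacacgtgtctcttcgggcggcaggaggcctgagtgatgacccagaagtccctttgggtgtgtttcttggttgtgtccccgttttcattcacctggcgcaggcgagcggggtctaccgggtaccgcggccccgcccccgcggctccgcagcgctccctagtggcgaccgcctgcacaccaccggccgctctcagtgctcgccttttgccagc
Tgfb2, chr1:186705990-186706239, minus strand: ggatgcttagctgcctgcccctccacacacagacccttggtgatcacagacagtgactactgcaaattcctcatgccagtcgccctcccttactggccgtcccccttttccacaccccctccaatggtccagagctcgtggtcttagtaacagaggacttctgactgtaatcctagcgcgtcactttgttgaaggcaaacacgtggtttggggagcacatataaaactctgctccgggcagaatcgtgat
The Sp5 window held 2 matches, which begin 204 and 104 bases before the start, and the windows of Wif1 and Tgfb2 held none. A match was present in 13.8% of all 32851 windows of this length and in 13.3% of the 210 windows found for 159 of the 220 genes raised in knot cells against all other cells. The raised genes with a window thus did not hold these letters more often than promoters at large. Only CTTTGA and TCAAAG were searched for. A match or its lack describes the letters of this window only, not whether LEF or TCF factors bind there.

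Levels were taken as CPM, the UMIs of a gene per 1000000 UMIs summed over a group of cells. A gene was called raised or lowered by size alone, when adding 5 to the CPM of either group left a ratio of at least 2, and at least 15% of cells of the higher group had a UMI. Genes with a UMI in at least 5% of cells of either group were considered. Against all other E12.0 cells, 220 of 9829 genes were raised (2.24%) and 81 were lowered (0.824%). Against dental Shh-negative cells, 203 of 9923 genes were raised (2.05%) and 40 were lowered (0.403%). With shares this low, a short list with 0 calls lies near the share of all genes. The median log2 fold of all considered genes was -0.01 in both comparisons, so the calls are departures from a centre near 0. The lowered counts depended on the settings more than the raised ones: without called doublets 137 and 89 genes were lowered in the same order, and with at least 1 Shh UMI 39 and 6.

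Tgfb2, Bmp2, Wif1, Sp5 and Dkk4, the other markers of the knot, were raised in both comparisons. Tgfb2 stood at 729.9 CPM (692 to 770) in knot cells, 29.7 CPM in all other cells and 77.6 CPM in dental Shh-negative cells, a log2 ratio of 4.62 (4.52 to 4.71) and 3.23 (3.11 to 3.36). Wif1 stood at 124 CPM against 1.64 and 3.12 CPM, and Bmp2 at 206 CPM against 6.22 and 9.71 CPM. Sp5 stood at 127 CPM against 5.48 and 18.3 CPM. Dkk4 stood at 58.6 CPM against 1.75 CPM in all other cells, and dental Shh-negative cells held 3 UMIs of it in all, which gave a log2 ratio of 7.85 (6.27 to 10.15). For each of these markers knot cells lay far above both comparison groups, and all but Dkk4 lay higher in the dental Shh-negative cells than in all other cells.

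At equal depth, the share of cells with a UMI of Tgfb2, Bmp2 or Wif1 was highest in knot cells and lowest in anterior aboral cells. With every cell thinned to 4100 UMIs, Tgfb2 was present in 75.1% of 225 knot cells, 19.9% of dental Shh-negative cells and 1.67% of anterior aboral cells, against 80.8% and 27.7% of knot and dental Shh-negative cells before thinning. Bmp2 was present in 42.2%, 4.04% and 2.16% of thinned cells, and Wif1 in 24.9%, 1.06% and 0.178%. Thinning left out 9 knot cells, 41 dental Shh-negative cells and 319 anterior aboral cells.

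Other genes with large ratios were Notum, an extracellular enzyme that inactivates WNT ligands (89.8 CPM against 1.92 and 1.94 CPM), Casz1, a zinc finger transcription factor (137 CPM against 6.15 and 9.88 CPM), and Sp6, a transcription factor required for normal teeth (183 CPM against 11.4 and 20.0 CPM). Gad1, which makes the transmitter GABA, stood at 67.7 CPM against 1.80 and 3.46 CPM. Tubb3, a tubulin best known from neurons, stood at 83.8 CPM against 2.37 and 3.72 CPM. Thbs1, an adhesive matrix glycoprotein, stood at 361 CPM against 32.3 and 34.5 CPM. Frem1, a basement membrane protein, stood at 195 CPM against 11.5 and 29.7 CPM, and Pcdh19, a protocadherin, at 70.4 CPM against 2.14 and 4.31 CPM. Stac, an adaptor protein, stood at 44.6 CPM against 0.329 and 0.760 CPM. All of these were raised in both comparisons, as were 3632451O06Rik and Fam19a4. The list of genes that the study named for the knot (Fgf20, Gad1, Proser2, Relb, Lef1, Sox13 and others) was raised in 8 of 8 considered members in both comparisons. That list was drawn from this library and is not independent evidence.

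**Figure D2:**
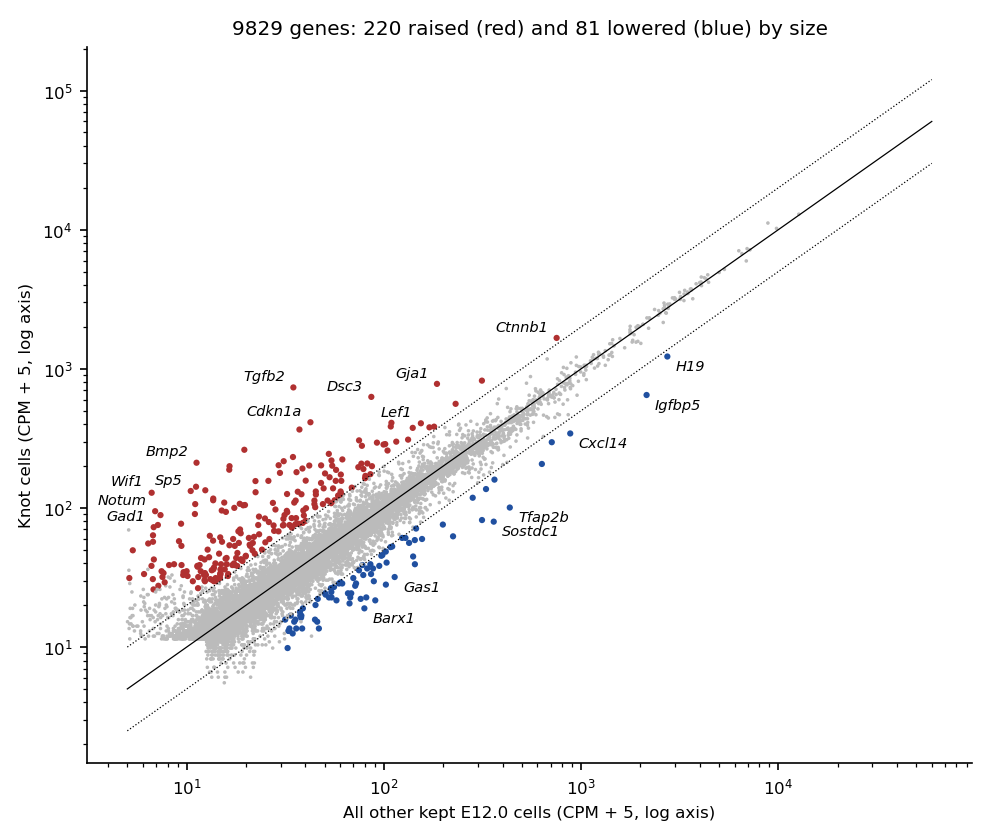
Each point is 1 of 9829 genes, with its level in all other kept E12.0 cells on the horizontal axis and in knot cells on the vertical axis, both as CPM plus 5 on log axes; the dotted lines mark a 2-fold difference, and grey points beyond them had a UMI in fewer than 15% of cells. Of these, 220 genes are raised (red) and 81 lowered (blue), with Tgfb2, Bmp2 and Wif1 farthest above the diagonal.

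Against all other cells the lowered genes included several of other jaw epithelium. Tfap2b, a transcription factor of the anterior epithelium, stood at 95.7 CPM (82.1 to 111) against 430 CPM, and Krt15, a basal keratin, at 76.9 CPM against 309 CPM. Barx1, a homeobox gene of lateral and posterior epithelium, stood at 14.0 CPM against 74.6 CPM, and Wnt7b, a WNT ligand, at 57.5 CPM against 219 CPM. None of these 4 was lowered against dental Shh-negative cells, where Tfap2b stood at 114 CPM and Krt15 at 96.2 CPM. Of the 12 anterior aboral markers, 6 of 11 considered were lowered against all other cells and 0 of 9 against dental Shh-negative cells. Of all considered genes 0.824% and 0.403% were lowered, so 0 of 9 is near that share. Cxcl14, the main one of them, was at 338 CPM in knot cells, 876 CPM in all other cells and 204 CPM in dental Shh-negative cells. Sostdc1, a secreted inhibitor of BMP and WNT, was lowered in both, at 74.7 CPM against 356 and 189 CPM, with log2 ratios of -2.25 (-2.50 to -2.01) and -1.34 (-1.60 to -1.09).

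Against dental Shh-negative cells the lowered genes included growth factor receptors, ligands and transcription factors. Dlk1, a Notch-related membrane protein, stood at 10.2 CPM against 53.6 CPM, Ntrk2, a neurotrophin receptor, at 14.5 CPM against 64.9 CPM, Fgf8, an FGF ligand of early oral epithelium, at 13.4 CPM against 58.4 CPM, and Ncam1, an adhesion molecule, at 10.2 CPM against 42.0 CPM. Sox2, a transcription factor of dental progenitor cells, stood at 39.2 CPM against 105 CPM, and Pitx1 at 185 CPM against 435 CPM. Nr2f2, a nuclear receptor, stood at 110 CPM against 295 CPM, and Cdo1, an enzyme of cysteine breakdown, at 35.5 CPM against 147 CPM. Of the 13 incisor and molar bud markers, 12 were considered: 5 were raised against all other cells (Irx2, Fst, Dsc3, Enc1 and Flrt3), and against dental Shh-negative cells 2 were raised (Dsc3 and Flrt3) and 2 lowered (Ntrk2 and Osbpl6). Irx1 itself chose the comparison cells and is left out of those counts.

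The hedgehog pathway was split by role. Of the genes for ligand release, Scube1 stood at 52.1 CPM against 1.75 and 1.10 CPM and Scube3 at 281 CPM against 94.5 and 107 CPM, both raised in both comparisons. SCUBE proteins help lipid-modified SHH to leave the cell that makes it. Ptch1, the main receptor and a target of the pathway, stood at 208 CPM against 114 and 155 CPM and was not called. The co-receptor Boc was lowered in both, at 8.06 CPM against 28.1 and 21.4 CPM. The co-receptor Gas1, at 26.9 CPM, was lowered against all other cells (108 CPM) and not against dental Shh-negative cells (44.2 CPM). Of the 4 effectors Gli1, Gli2, Gli3 and Sufu, 0 were raised or lowered. This is near the share of all considered genes, 2.24% raised and 0.824% lowered against all other cells. Gli1, a common readout of the response to SHH, stood at 54.3 CPM against 29.9 CPM in all other cells and 54.0 CPM in dental Shh-negative cells, and its log2 ratio to the latter was 0.01 (-0.31 to 0.31).

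WNT genes of several roles were raised. Of 14 considered WNT antagonists and feedback inhibitors, 6 were raised against all other cells (Dkk3, Dkk4, Wif1, Axin2, Nkd1 and Notum) and 9 against dental Shh-negative cells (these and Znrf3, Kremen1 and Kremen2), while Sostdc1 was lowered in both. The median log2 fold of the list was 1.01 and 1.14, beside -0.01 for all considered genes. Axin2, the common feedback target of the pathway, stood at 126 CPM (111 to 144) against 40.1 and 47.7 CPM. Of 6 considered transcription factors of the pathway, Lef1 and Sp5 were raised in both comparisons and Ctnnb1, which encodes beta-catenin, against all other cells. Lef1 stood at 401 CPM against 149 and 164 CPM, and Ctnnb1 at 1662 CPM against 746 and 857 CPM. Of 11 considered ligands, Wnt10a stood at 99.4 CPM against 14.3 and 9.20 CPM and Wnt10b at 27.9 CPM against 4.60 and 2.87 CPM, both raised in both comparisons. Wnt3 and Wnt5a were raised against dental Shh-negative cells only by the size rule, a difference between the comparisons that was not tested. Wnt7b and Wnt9b were lowered against all other cells. Of 15 considered receptors, Lgr6, a receptor for R-spondins, was raised in both, at 79.0 CPM against 19.9 and 12.0 CPM. Ror2 was raised against all other cells, and the FZD and LRP receptors were not called.

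Ligands of the BMP family were raised. Of 4 considered ligands, Bmp2 and Bmp4 were raised in both comparisons and Bmp7 against dental Shh-negative cells. Bmp4 stood at 53.2 CPM against 8.61 and 3.29 CPM. Of 5 considered BMP receptors 0 were called, with median log2 folds of -0.02 and -0.0036. Against all other cells 2.24% of all considered genes were raised and 0.824% lowered, so 0 of 5 is near the share of all genes. Bambi, a decoy receptor, stood at 275 CPM against 72.3 and 85.3 CPM and was raised in both. Nog, a secreted BMP inhibitor, was lowered in both, at 16 UMIs (4.92 to 14.0 CPM) against 41.8 and 35.0 CPM. Among 6 BMP target genes Msx2 was raised in both, at 159 CPM against 75.3 and 38.2 CPM, and Msx1 against dental Shh-negative cells, whereas Id1, Id2, Id3 and Id4 were not called. Of 6 considered TGF-beta and activin genes, Tgfb1 was raised beside Tgfb2 in both comparisons, at 44.6 CPM against 16.6 and 19.3 CPM. Tgfbr3, a receptor, was lowered against dental Shh-negative cells.

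Among FGF ligands Fgf9, Fgf17 and Fgf20 were raised in both comparisons. Fgf17 stood at 50.5 CPM against 1.38 and 1.60 CPM, Fgf20 at 26.3 CPM against 0.118 and 0.422 CPM, and Fgf9 at 152 CPM against 55.8 and 71.2 CPM. Of the 7 considered FGF response genes 0 were called, with a median log2 fold of -0.0035 and -0.01. That count is near the share of all considered genes, 2.24% raised and 0.824% lowered against all other cells. Among these Spry2 stood at 61.8 CPM against 34.2 and 34.6 CPM, and Etv5 at 35.5 CPM against 35.6 and 30.3 CPM. The 3 considered FGF receptors were not called.

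In the ectodysplasin and NF-kB list, Tnfrsf19, a receptor of the TNF family, and Relb, an NF-kB subunit, were raised in both comparisons. Tnfrsf19 stood at 305 CPM against 128 and 85.4 CPM. Relb stood at 27.4 CPM (20.4 to 36.0) against 5.10 and 9.37 CPM. Nfkbia, an inhibitor induced by NF-kB, stood at 195 CPM against 82.0 and 97.9 CPM and was raised against all other cells. Edar, the receptor of ectodysplasin, stood at 17.2 CPM against 3.65 and 6.75 CPM, and had a UMI in 12.0% of knot cells, under the share needed for a call. In the Notch list, Notch1 stood at 203 CPM against 71.9 and 59.4 CPM and was raised in both, Jag1 was raised against all other cells and Hey1 against dental Shh-negative cells, while Hes1 was not called.

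**Figure D3:**
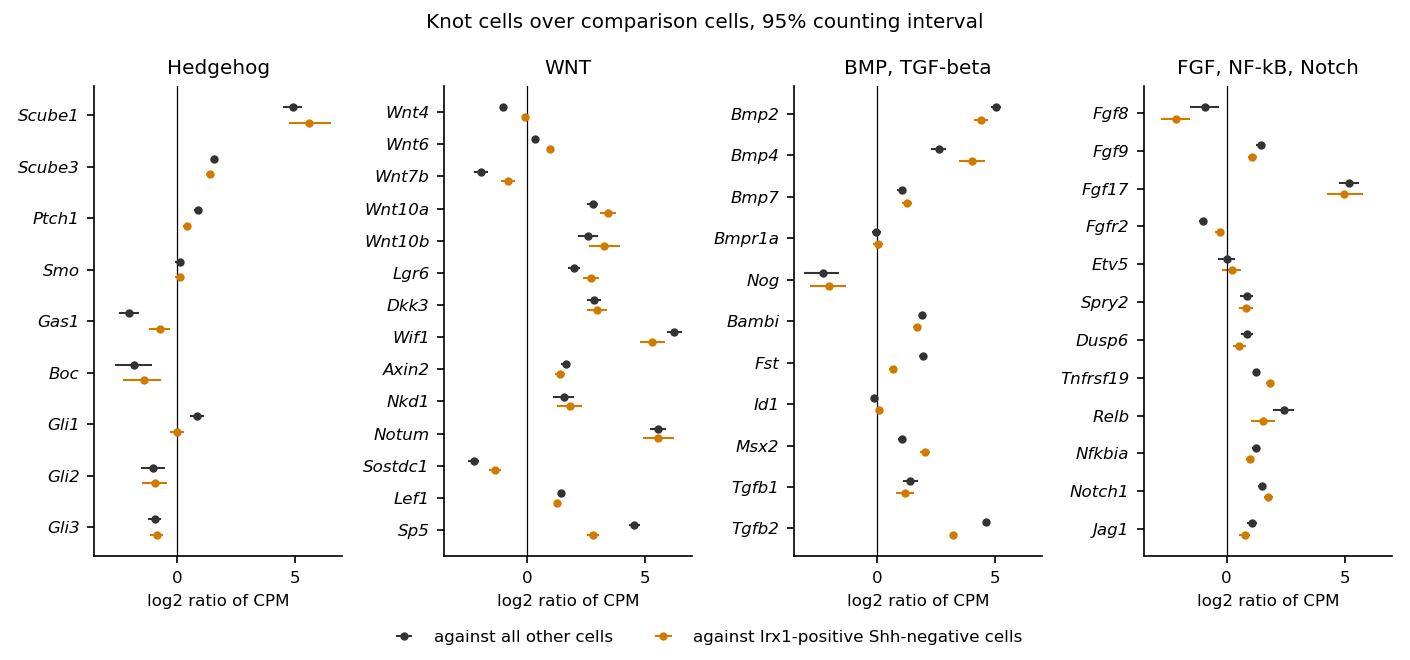
Points give the log2 ratio of CPM in knot cells over all other kept E12.0 cells (black) or dental Shh-negative cells (orange), and bars the 95% counting interval, for genes of the hedgehog, WNT, BMP and TGF-beta, FGF, NF-kB and Notch pathways. Log2 ratios of Wif1, Notum, Bmp2 and Fgf17 lie between 4.41 and 6.23 in both comparisons, whereas Bmpr1a, Smo, Id1 and Etv5 lie near 0.

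The cell cycle inhibitor Cdkn1a, which encodes p21, was raised, and the medians of the S phase and mitosis lists lay below 0. Cdkn1a (GRCm38 chr17:29090976-29100727, plus strand) stood at 408 CPM (379 to 438) in knot cells against 37.4 and 49.6 CPM, with log2 ratios of 3.45 (3.33 to 3.56) and 3.04 (2.88 to 3.20). It was present in 58.7% of thinned knot cells, 15.6% of dental Shh-negative cells and 10.8% of anterior aboral cells. Btg2, an antiproliferative gene, stood at 118 CPM against 53.6 and 47.1 CPM and was raised in both. Of the 7 considered inhibitors Rb1 was also raised against dental Shh-negative cells, whereas Cdkn1b and Cdkn1c were not called in either comparison, and Cdkn1c stood at 207 CPM against 416 and 262 CPM. Of 15 S phase genes 0 were raised, and the median log2 fold was -0.63 and -0.64. Of 15 genes of G2 and mitosis 0 were raised, with medians of -0.39 and -0.65. Of all considered genes 2.24% and 2.05% were raised, so 0 of 15 is near that share, and their median log2 fold was -0.01 in both comparisons. The 3 D cyclins were not called. Single calls were made for Pcna, a DNA replication clamp (19.3 CPM against 45.6 CPM), and Cdk1, the mitotic kinase (61.8 CPM against 136 CPM), both lowered against dental Shh-negative cells. Of 9 considered p53 targets besides Cdkn1a, Bbc3 was raised in both, Phlda3 against all other cells and Trp53inp1 against dental Shh-negative cells, and Mdm2, Ccng1 and Bax were not called.

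Summed over the list, S phase genes stood at 1486.9 CPM (1478 to 1496) in cells with no Shh UMI, 1349.3 CPM (1253 to 1451) in knot cells with 2 Shh UMIs, 774 CPM (700 to 855) in those with 3 or 4, and 787 CPM (727 to 851) in those with 5 or more. Genes of G2 and mitosis stood at 3163 CPM in cells with no Shh UMI, and at 2739 CPM, 2683 CPM and 2041 CPM in the 3 groups of knot cells. Cdkn1a ran the other way, at 36.2 CPM with no Shh UMI, 109 CPM with 1, 179 CPM with 2, 296 CPM with 3 or 4 and 632 CPM (578 to 689) with 5 or more. Median depth was 6868.5, 7026 and 6965 UMIs in the 3 groups of knot cells. Among the knot cells, the 94 with at least 3 Cdkn1a UMIs had 824 CPM of S phase genes and 1753 CPM of G2 and mitosis genes, against 1147 CPM and 2901 CPM in the 60 with no Cdkn1a UMI. The 80 with 1 or 2 Cdkn1a UMIs lay between for S phase genes, at 957 CPM, and at 2901 CPM for G2 and mitosis genes, the level of cells with none.

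**Figure D4:**
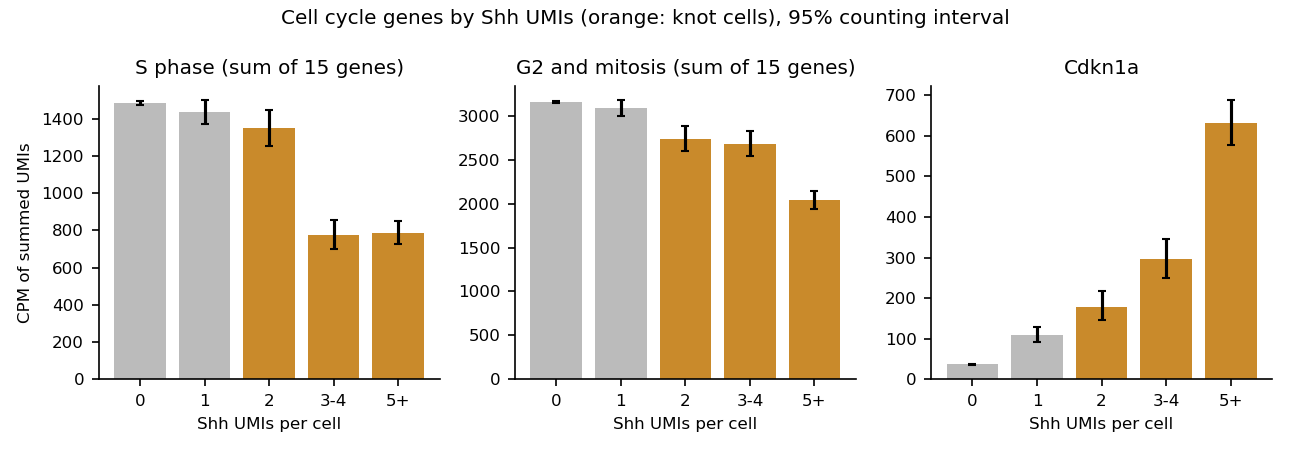
Bars give the summed CPM of 15 S phase genes, of 15 genes of G2 and mitosis and of Cdkn1a, by Shh UMIs of E12.0 cells with no Foxa UMI, with 95% counting intervals; orange bars are knot cells. S phase genes are near 1349 CPM at 2 Shh UMIs and under 800 CPM above that, while Cdkn1a reaches 632 CPM.

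Knot genes varied with the number of Shh UMIs across the threshold of the rule. Because Shh chose these groups, the values are a description. Tgfb2 stood at 24.8, 258, 448, 630 and 981 CPM in cells with 0, 1, 2, 3 or 4, and 5 or more Shh UMIs. Bmp2 stood at 5.43, 40.9, 103, 132 and 322 CPM, and Wif1 at 0.962, 15.6, 33.2, 59.1 and 225 CPM. All 3 were lowest in cells with no Shh UMI and highest in those with 5 or more, and cells with 1 Shh UMI, outside the knot group, lay between. Fgf20 stood at 11.1, 15.8 and 43.2 CPM in the 3 groups of knot cells and at 0.744 CPM with 1 Shh UMI, from 1 UMI in 181 cells. Sox2 did not follow: it stood at 67.2, 110, 62.7, 47.3 and 18.5 CPM, highest in cells with 1 Shh UMI and lowest in those with 5 or more. Sostdc1 declined from 357 CPM with no Shh UMI to 39.5 CPM with 5 or more.

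**Figure D5:**
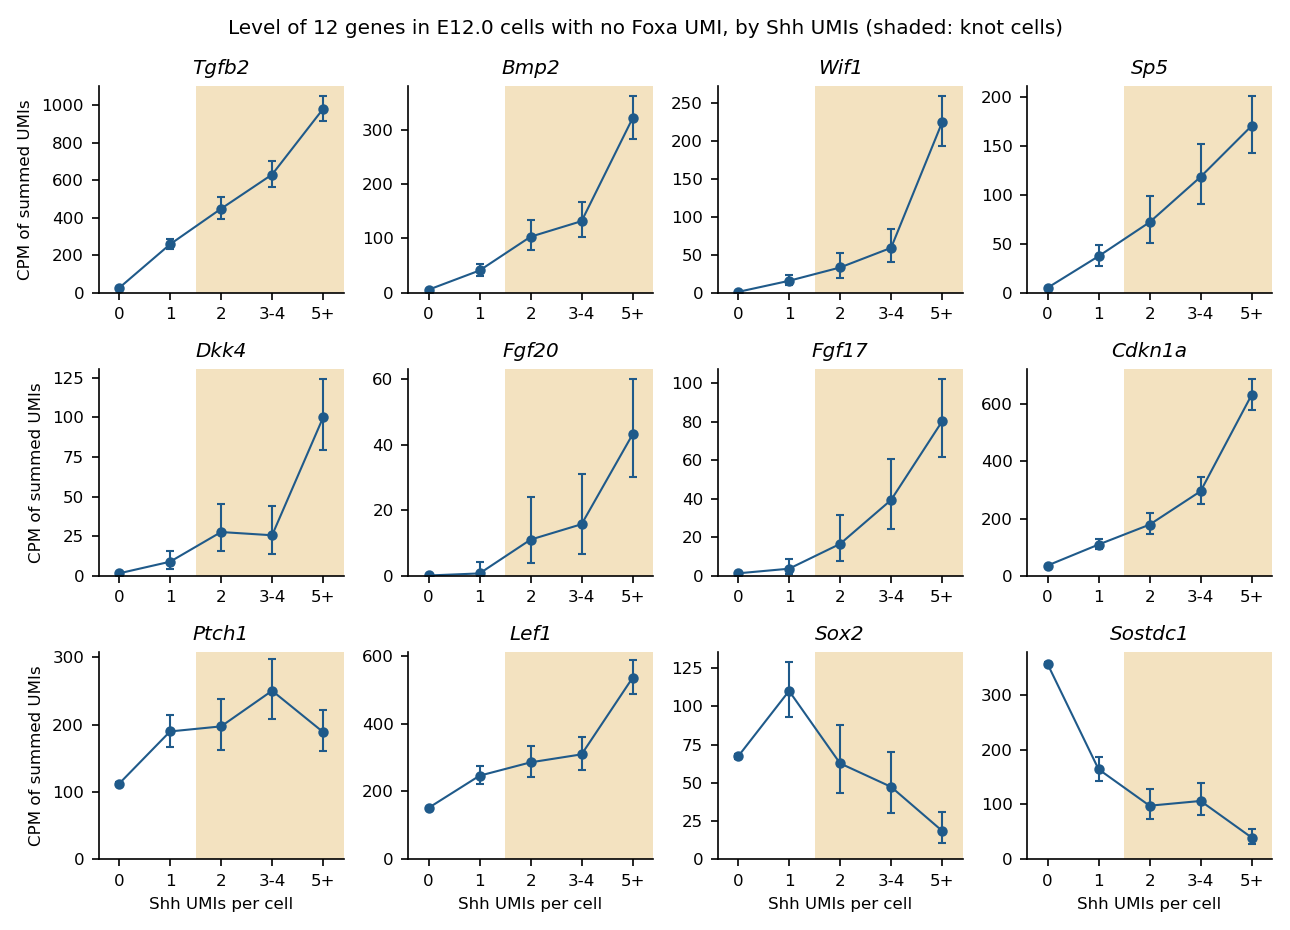
Points give the CPM of 12 genes in E12.0 cells with no Foxa UMI, by the Shh UMIs of the cell, with 95% counting intervals; the shaded groups are the knot cells. Tgfb2 climbs from 24.8 to 981 CPM, whereas Sox2 peaks at 110 CPM with 1 Shh UMI and is at 18.5 CPM with 5 or more.

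Isl1 and Tlx1, markers of the medial jaw where incisors form, had a UMI of either in 142 knot cells (16.2% called doublets, against 6.52% of the others). These cells held 747 CPM of Tgfb2 (700 to 798) and 168 CPM of Bmp2 (146 to 193), and the 92 others 696 CPM of Tgfb2 (633 to 764) and 279 CPM of Bmp2 (240 to 323). Fgf20 stood at 26.2 and 26.7 CPM and Wif1 at 123 and 124 CPM in these groups, within counting error of each other.

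The 24 cells with at least 2 Shh UMIs that were left out for a Foxa UMI held 135 CPM of Notum and 97.4 CPM of Wif1, beside 89.8 and 124 CPM in knot cells. Fst stood at 13.9 CPM, against 218 CPM in knot cells, with a log2 ratio of -3.97 (-6.25 to -2.41), and Tgfb2 at 269 CPM against 730 CPM. Fgf20 had 0 UMIs among these 24 cells. Genes of G2 and mitosis summed to 4907 CPM (4616 to 5212), against 2420 CPM (2349 to 2491) in knot cells.

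Markers of other cell types were examined as a whole. Mesenchyme markers summed to 12 UMIs, 6.45 CPM (3.33 to 11.3), over 7 genes in knot cells, against 9.82 CPM in all other cells and 17.0 CPM in dental Shh-negative cells, with Col1a2 the most abundant and Col3a1, Pdgfra and Prrx1 at 0. Endothelium markers summed to 2 UMIs over 4 genes, with Cdh5, Kdr and Tie1 at 0. Blood and immune markers summed to 1 UMI over 7 genes, of which the 4 haemoglobin genes had no UMI in any E12.0 group and so check nothing. The neural and glial list summed to 91.4 CPM in knot cells against 12.1 CPM in all other cells, and Tubb3 made up 83.8 CPM of it. Of the periderm and suprabasal markers, 3 of 10 considered were raised against all other cells and 2 of 11 against dental Shh-negative cells, 0 were lowered, and the median log2 fold was 0.59 and 0.54, beside -0.01 for all considered genes. Pkp1, a desmosome protein (95.1 CPM against 12.4 and 14.4 CPM), and Krt17, a keratin (212 CPM against 26.0 and 62.6 CPM), were raised in both and Ppl against all other cells, while Grhl3 and Cldn4 were not called. The part of suprabasal cells in other results was not tested. Epcam and Krt14, which mark epithelium, had a UMI in 84.2% and 97.9% of knot cells.

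Some further genes are given that were chosen after their values were seen, apart from Dsc3. Dsc3, a desmosomal cadherin, stood at 623 CPM against 81.3 and 216 CPM, and Gja1, the gap junction protein connexin 43, at 774 CPM against 181 and 247 CPM. Cd44, a hyaluronan receptor, stood at 85.5 CPM against 6.01 and 9.29 CPM. The guidance receptors Robo1, Unc5c and Nrp2 stood at 197, 176 and 125 CPM in knot cells, against 36.8, 31.0 and 17.4 CPM in all other cells. Sema3a, a secreted guidance ligand, was lowered against all other cells, at 70.9 CPM against 194 CPM. Except for Dsc3, these genes belong to none of the lists, and whether they form a group was not tested. The list of epithelial adhesion genes and keratins holds none of them. Of its 16 considered members 0 were raised in either comparison, near the 2.24% and 2.05% of all considered genes. Of 10 cholesterol synthesis genes 0 were called in either comparison, and of 9 considered glycolysis and hypoxia genes 0 were called against all other cells and 1 (Egln3, lowered) against dental Shh-negative cells.

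Lists of position and tissue identity held calls in both directions. Of 18 considered dental transcription factors, Sp6 and Runx1 were raised in both comparisons and Irx2 against all other cells, while Irx3 was lowered against all other cells and Pitx1 and Sox2 against dental Shh-negative cells. Runx1 stood at 371 CPM against 135 and 128 CPM. Prss23, 1 of 2 diastema markers, was raised in both, at 283 CPM against 96.6 and 98.4 CPM. The study also gives Prss23 and Dsc3, like Shh, as markers of the initiation knot and of taste bud primordia. Among 5 medial and lateral markers Bmp4 was raised in both, with Barx1 lowered in one and Fgf8 in the other as given above. Of the posterior markers 0 of 6 were called against all other cells, and Sox2 was the only 1 of 3 against dental Shh-negative cells. Of the tongue and taste bud markers Notum was raised in both and Krt8 lowered against all other cells, and of 2 salivary gland markers Sox9 was lowered against all other cells. Of the epithelial adhesion genes and keratins, Col17a1 and Krt15 were lowered against all other cells and 0 were called against dental Shh-negative cells. Among immediate early and heat shock genes, which can mark dissociation, Atf3 stood at 172 CPM against 45.3 and 41.1 CPM and Junb at 152 CPM against 52.0 and 46.4 CPM, both raised in both comparisons, and Fosb was lowered against all other cells.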

How the data were processed

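Per the labels and the study's methods, cells were captured with 10x Genomics 3' chemistry, and the authors aligned reads to GRCm38 and deposited raw UMI counts per gene and barcode, without normalization. The submitters' processing notes name Cell Ranger 2.0.0, whereas the headers name 3.1.0 (E12.0) and 6.1.2 (E9.5). Cells with 200 to 5500 genes and at most 10% mitochondrial UMIs were kept, as in the study. The E12.0 file held 11663 barcodes, and the kept cells 77936364 UMIs (503 to 21712 per cell).

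UMI counts were summed per group. CPM intervals are exact Poisson, ratio intervals exact conditional and share intervals exact binomial (Clopper-Pearson), all 95%, and they cover counting error only. Ratios quoted as log2 are of plain CPM, and list medians of CPM with 5 added. The rule genes were left out of counts. Doublets were called with Scrublet in scanpy 1.11.5 (661 of 11355 cells) and kept. Genes named are the most raised (15) and lowered (10) per comparison and members of 42 lists, apart from Gja1, Cd44, Robo1, Unc5c, Nrp2 and Sema3a, which were chosen after their values were seen. Members and lists were chosen with earlier results of these data known. Some items are not reported here. Positions are those of GENCODE (GRCm38). Steps were tested on simulated counts with 200 of 2000 genes changed 4-fold. Python 3.11.15, numpy 2.4.6, scipy 1.17.1, pandas 2.3.3 and matplotlib 3.10.9 were used. 0 columns of other samples were present. Alternatives changed the Shh threshold, cell filters, depth, doublets, embryo sex, weighting and size rule.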

Additional observations from a re-analysis of the deposited data

How the results depend on the processing

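Of 220 genes raised and 81 lowered against all other cells, and 203 raised and 40 lowered against dental Shh-negative cells, the raised counts stayed within 1.5 times unless the Shh threshold or the fold was relaxed. With at least 1 Shh UMI the counts were 138, 39, 115 and 6, in the same order, and with a fold of 1.5 they were 460, 315, 447 and 316. Lowered counts, against all other and then dental Shh-negative cells, were 128 and 99 with at least 3 Shh UMIs, 137 and 89 without called doublets, 148 and 95 at no more than 5% mitochondrial UMIs, and 156 and 141 in Xist-positive cells with no Y-linked UMI. They were 51 and 24 where a UMI in 25% of cells was required, and 125 and 84 in knot cells with at least 2 other markers, a choice made after seeing the data. Against dental Shh-negative cells 71 genes were lowered with each cell weighted equally and 77 with 1 CPM added. The cause of these differences was not tested. Thinning, no upper gene limit, Y-positive cells, depth-matched or Shh-free comparison cells and no filter on low genes kept all counts within 1.5 times. Of 2218 alternative values of the 164 called folds of named genes, 0 reversed and 456 left the counting interval. With 1 library per stage, no paired or replicate analysis could be made, embryos are not separated, and at 234 cells a gene with 3 UMIs stands at 1.61 CPM.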

Other observations

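In the E9.5 library, 33 of 12744 kept cells met the same rule, 0.259% of them. They held 472159 UMIs with a median of 13603 UMIs per cell. Bmp2 stood at 14.8 CPM and Tgfb2 at 63.5 CPM in these cells, against 3.11 and 27.2 CPM in the other E9.5 cells. Wif1 had 1 UMI and Dkk4 had 0 UMIs, and Tubb3, raised in E12.0 knot cells, also had 0. Sox2 stood at 244 CPM and Ptch1 at 239 CPM, against 39.5 and 63.3 CPM in the other E9.5 cells, and Epcam had a UMI in 100% of the 33 cells. The E9.5 cells were unsorted, and those that met the rule are not taken as knot cells.

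Of all kept E12.0 cells, inside and outside the rule, 148 had a UMI of at least 3 of Bmp2, Wif1, Sp5, Dkk4 and Tgfb2. Of these 95 were knot cells, 16 had 1 Shh UMI, 6 had at least 2 Shh UMIs with a Foxa UMI, and 31 had no Shh UMI. The median depth of the last was 8866 UMIs.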
